A study of Homo sapiens with 26 samples.

Results

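The genes examined were the 41 subunits and activators of the proteasome, and 36 of them had a probe-set paired with their symbol alone. The proteasome is the barrel-shaped protease that degrades proteins marked with ubiquitin. Its 20S core stacks rings of alpha subunits around rings of beta subunits, and the beta subunits PSMB5, PSMB6 and PSMB7 carry the proteolytic sites. In lymphoid cells and under interferon these are replaced in newly made cores by PSMB8, PSMB9 and PSMB10, which gives the immunoproteasome that cuts peptides for presentation on MHC class I. The 19S cap recognises, unfolds and feeds in the substrate, and the 11S rings (PSME1, PSME2, PSME3) and PA200 (PSME4) are alternative caps. Plasma cells secrete large amounts of antibody, and myeloma, their malignant form, is treated with inhibitors of PSMB5.

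Of the 41 genes, 36 were among 19775 named genes measured. PSMA6 and PSME2 were reached only by probe-sets that the annotation also assigns to another gene. PSMC5, PSMD7 and PSMD13 had no probe-set paired with them in the annotation used here. Where a gene had several probe-sets, the one with the highest mean over all lines represented it. The lists were the 20S alpha ring (6 of 7 genes measured), the structural beta subunits (4 of 4), the constitutive catalytic subunits (3 of 3), the immunoproteasome catalytic subunits (3 of 3), the 19S ATPases (5 of 6), the 19S non-ATPases (9 of 11), the 19S assembly chaperones (3 of 3) and the 11S and PA200 activators (3 of 4).

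The panel held 26 human malignant B-cell lines, 14 grouped as diffuse large B-cell lymphoma (DLBCL) and 12 as multiple myeloma (MM). The DLBCL group includes MC-116, labelled an undifferentiated lymphoma, and the MM group includes AMO-1, labelled a plasmacytoma. RNA came from drug-naïve cells in exponential growth, in RPMI or IMDM medium with 10 to 20% serum, and each line gave 1 array. The same lines were tested apart from this for resistance to cyclophosphamide (C), doxorubicin (H) and vincristine (O), summarised as AUC0, the area under the part of the dose response curve above 0, which is higher in more resistant lines. A line is 1 patient's tumour kept in culture, and KMS-12-BM and KMS-12-PE came from the same patient. Each array measured the RNA of a whole culture, so fewer expressing cells and less RNA per cell could not be told apart.

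The lines carried the markers of their labels. All 4 measured B-cell markers (PAX5, MS4A1, CD79B and BCL6) were lower in MM lines and all 5 plasma cell markers (PRDM1, SDC1, XBP1, IRF4 and TNFRSF17) were higher, while none of the 16 measured T-cell, NK-cell, myeloid, stromal and endothelial markers was called. Of 8 proliferation genes, 2 were called lower in MM lines, beside 5.40% of all tested probe-sets, and none higher. Their median difference was -0.43 on the log2 scale. The part of proliferation in the differences below was not tested.

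The promoters that bear on the results below are shown first, as 300 bases from 250 before to 50 after the annotated start, on the strand of the gene (RefSeq, GRCh38.p14). PSMB4 is the core subunit called between the diseases. PSMB8, PSMB9 and PSMB10 are the immunoproteasome subunits, and PSME1 is the 11S subunit named for its slopes on resistance. The capitals mark the letters GAAANNGAA (core of the interferon-stimulated response element), TTCNNNGAA (GAS, a STAT site), TGACNNNGC (antioxidant response element) and CCAAT, searched on both strands.
PSMB4, chr1:151399323-151399622, plus strand: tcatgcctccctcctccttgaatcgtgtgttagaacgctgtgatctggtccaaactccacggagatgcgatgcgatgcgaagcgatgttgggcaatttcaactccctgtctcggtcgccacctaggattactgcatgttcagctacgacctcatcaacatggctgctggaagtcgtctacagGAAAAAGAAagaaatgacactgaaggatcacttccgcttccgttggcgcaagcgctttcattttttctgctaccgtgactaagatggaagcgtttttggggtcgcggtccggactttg
PSMB8, chr6:32843998-32844297, minus strand: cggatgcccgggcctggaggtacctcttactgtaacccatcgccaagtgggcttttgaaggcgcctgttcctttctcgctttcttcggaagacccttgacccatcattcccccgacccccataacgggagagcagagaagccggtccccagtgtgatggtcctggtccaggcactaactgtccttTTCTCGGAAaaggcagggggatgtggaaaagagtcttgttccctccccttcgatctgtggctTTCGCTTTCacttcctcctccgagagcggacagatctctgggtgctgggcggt
PSMB9, chr6:32853942-32854241, plus strand: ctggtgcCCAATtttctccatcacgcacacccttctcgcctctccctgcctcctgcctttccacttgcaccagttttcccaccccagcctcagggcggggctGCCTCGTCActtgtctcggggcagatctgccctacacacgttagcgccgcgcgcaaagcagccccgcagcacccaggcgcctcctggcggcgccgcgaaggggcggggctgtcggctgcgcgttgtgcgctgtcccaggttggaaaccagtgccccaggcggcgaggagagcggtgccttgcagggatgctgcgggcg
PSMB10, chr16:67936801-67937100, minus strand: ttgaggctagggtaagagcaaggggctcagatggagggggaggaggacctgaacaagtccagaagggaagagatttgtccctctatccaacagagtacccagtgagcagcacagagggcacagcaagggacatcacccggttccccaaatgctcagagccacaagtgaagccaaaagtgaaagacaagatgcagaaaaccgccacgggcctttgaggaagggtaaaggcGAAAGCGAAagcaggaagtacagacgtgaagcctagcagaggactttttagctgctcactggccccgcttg
PSME1, chr14:24135944-24136243, plus strand: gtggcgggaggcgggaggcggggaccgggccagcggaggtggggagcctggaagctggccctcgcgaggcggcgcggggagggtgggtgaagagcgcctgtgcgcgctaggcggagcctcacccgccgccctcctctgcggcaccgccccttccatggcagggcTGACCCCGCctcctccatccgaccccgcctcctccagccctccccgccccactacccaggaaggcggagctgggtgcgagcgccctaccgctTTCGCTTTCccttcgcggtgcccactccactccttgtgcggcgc

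PSMB8, PSMB10 and PSME1 held the same letters close to their starts, GAAAGCGAA, which read TTCGCTTTC on the other strand, and so did PSME2. Counted from the start site, the first of these letters was at -3 in PSMB8, -21 in PSMB10, 7 in PSME1 and -28 in PSME2. These letters were picked after the promoters were read. They occur in 94 of the 35116 promoters of the table (0.268%), and among the proteasome genes in these 4 alone. The table holds 43 promoters for 36 of the 41 genes. These are not the same 36 as those measured, and PSMD4, the other gene called between the diseases, has none. The wider core GAAANNGAA was in 7 of the 43 (16.3%), beside 8.11% of all promoters, and TTCNNNGAA again in 7, beside 7.66%. TGACNNNGC was in 13 of the 43 (30.2%), beside 13.3% of all promoters, and CCAAT in 18 (41.9%), beside 34.6%. Of the PSMB8 starts in the table, the other one held none of these letters. PSMB9 held neither interferon motif in its window. A match describes letters, and its use in these lines was not tested.

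The first question was how the proteasome genes differed between MM and DLBCL lines. PSMB4, a structural beta subunit, and PSMD4, a 19S subunit that binds ubiquitin chains, were higher in MM lines, and no other subunit was called in either direction. The 2 called genes are 5.56% of the 36, beside the 5.49% of all 33297 tested probe-sets called higher in MM lines. Over the 19775 named genes alone 6.96% were called higher. The share was thus close to that of the whole array. None of the 36 was called lower in MM lines, beside 5.40% of all tested probe-sets. At an unadjusted p under 0.05 in limma, 4 of the 36 were higher (beside 11.3% of all tested probe-sets) and 4 lower (beside 13.6%), so these counts too were not above the share of the array. The median difference over the 36 genes, MM minus DLBCL on the log2 scale, was 0.06, beside -0.02 over all tested probe-sets.

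PSMD4 lay between 11.12 (SU-DHL-4) and 11.89 (SU-DHL-8) in DLBCL lines, with a median of 11.46 (log2 expression). In MM lines it ran from 11.70 (KMS-12-BM) through a median of 12.31 to 13.04 (KMS-11). All 12 MM lines were above the DLBCL median and 9 of 12 above the highest DLBCL line, so the groups overlapped at their edge only. The means were 11.52 ± 0.22 (SD, n = 14) and 12.28 ± 0.39 (SD, n = 12), a difference of 0.76 ± 0.12 (SE) or 1.69-fold (limma, adjusted p = 0.000133). PSMD4 was read by a probe-set whose name carries the suffix for probes that may also bind other transcripts. Of its 3 further probe-sets, a pair gave 0.79 and 0.80, and the dim one (mean 5.58) gave -0.07.

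PSMB4 was tightly grouped in DLBCL lines, from 12.30 (NU-DHL-1) to 12.82 (NU-DUL-1) with a median of 12.47. MM lines spread from 12.38 (MOLP-8) to 13.79 (KMS-11), with a median of 12.99. Of the 12 MM lines, 7 were above every DLBCL line and 11 above the DLBCL median. The difference was 0.50 ± 0.11 (SE), or 1.41-fold, between means of 12.49 ± 0.15 (SD, n = 14) and 12.99 ± 0.40 (SD, n = 12) (limma, adjusted p = 0.00472). The differences on the 3 probe-sets of PSMB4 were 0.42, 0.50 and 0.56, and 1 of them was called. With the probe-set of the largest SD over DLBCL lines the difference was 0.56 ± 0.20 (SE) and the call was lost (limma, adjusted p = 0.0769).

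**Figure D1:**
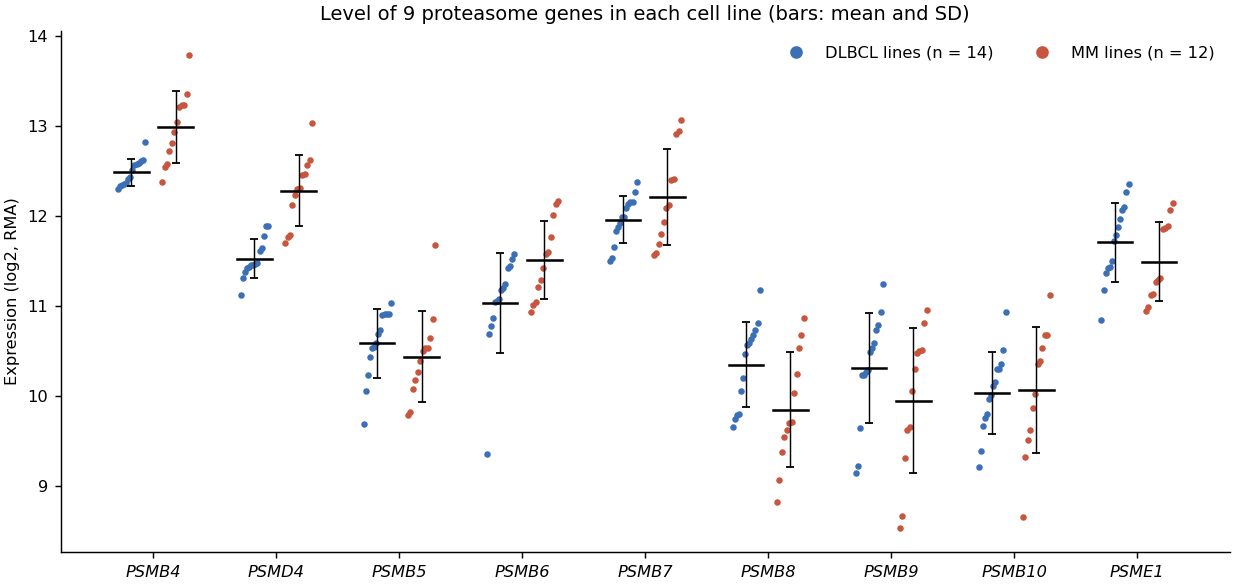
Expression (log2 after RMA, vertical axis) of 9 proteasome genes in 14 DLBCL lines (blue) and 12 MM lines (red), 1 point per line, with bars for mean and SD. The MM lines sit above most DLBCL lines for PSMB4 and PSMD4 and overlap them for the 6 catalytic subunits and PSME1. Heights compare lines within a gene, not genes with each other.

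Both called genes lie on the long arm of chromosome 1, with 4 tested named genes between them. The long arm of chromosome 1 is often gained in myeloma, but copy number was not measured here and its part was not tested. Among the 24 nearest tested named genes (10 on each side of each, joined), 9 were called higher in MM lines (37.5%) and none lower, with a median difference of 0.33. The same share was 11.5% over the 1650 tested named genes of chromosome 1 and 6.96% over all named genes. Chosen after their values were seen, PI4KB, which lies between the pair, was higher by 0.82 ± 0.13 (SE, limma, adjusted p = 9.69e-05) and VPS72 by 0.71 ± 0.15 (SE, limma, adjusted p = 0.00294). The neighbour of lowest value was MLLT11 at -1.96 ± 0.76 (SE), which was not called (limma, adjusted p = 0.0992). PSMA5 and PSMB2, also on chromosome 1 but away from this stretch, differed by -0.19 and -0.02, and the medians of their 20 neighbours were -0.16 and -0.07. Around the other 34 measured proteasome genes, the neighbours' median ran from -0.60 to 0.20.

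**Figure D2:**
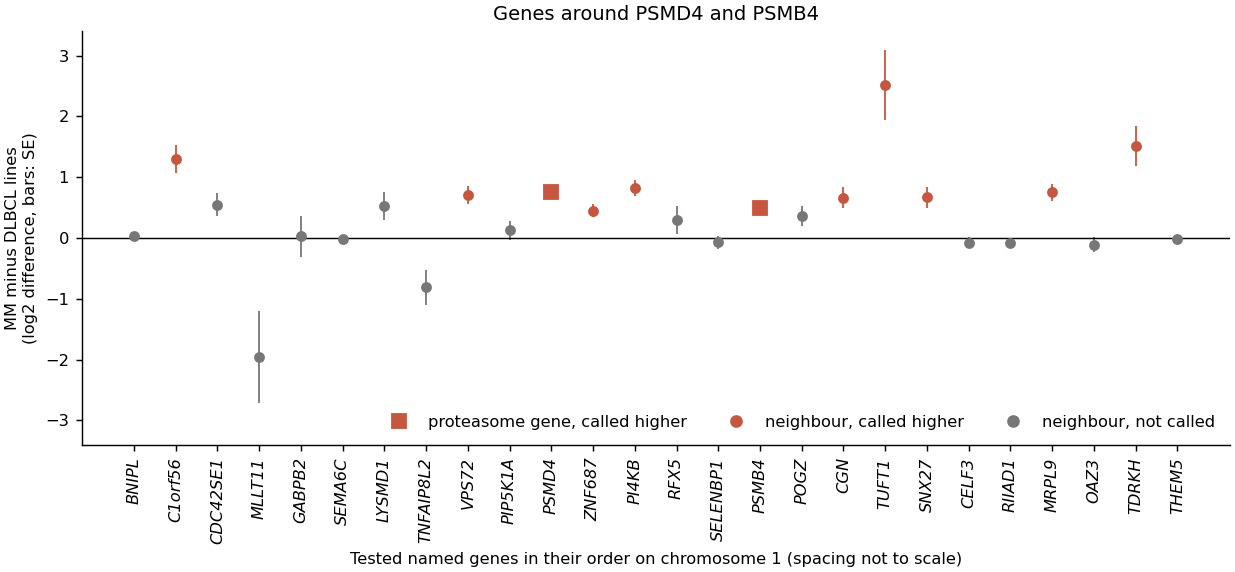
Difference between MM and DLBCL lines (log2, points, with bars for the SE) of the tested named genes around PSMD4 and PSMB4, in their order on chromosome 1 with equal spacing. Squares are the proteasome genes and red marks genes called higher in MM lines. The 2 squares stand among 9 called neighbours, and 15 neighbours were not called.

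PSMB4 and PSMD4 also varied together among lines of one disease. Their Pearson correlation was 0.88 over the 12 MM lines and 0.61 over the 14 DLBCL lines. KMS-11 was the highest MM line for both, and MOLP-8 and KMS-12-BM were among the 3 lowest for both. Against the mean of their neighbours outside the proteasome, PSMB4 had a correlation of 0.52 and PSMD4 one of 0.15 over the 26 lines after each disease was centred on its mean. Within MM lines alone the same correlations were 0.54 and 0.01, and within DLBCL lines 0.60 and 0.43. These are descriptions over lines that share the same arrays.

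The catalytic subunits were not called. Among the constitutive ones, PSMB6, the caspase-like site, ran from 9.36 (DB) to 11.57 (RIVA) in DLBCL lines with a median of 11.13, and from 10.94 (KMS-12-PE) to 12.17 (MM1S) in MM lines with a median of 11.50. Its difference was 0.48 ± 0.19 (SE, limma, adjusted p = 0.111), with DB apart from all other lines at the low end. PSMB7, the trypsin-like site, differed by 0.25 ± 0.16 (SE, limma, adjusted p = 0.348), with 5 of 12 MM lines above every DLBCL line. PSMB5, the chymotrypsin-like site and the target of bortezomib, ran from 9.69 (SU-DHL-4) to 11.04 (U2932) in DLBCL lines and from 9.78 (MM1S) to 11.68 (KMM-1) in MM lines. Its difference was -0.15 ± 0.17 (SE, limma, adjusted p = 0.641), and 11 of the 12 MM lines lay within the DLBCL range.

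Among the immunoproteasome subunits, PSMB8 and PSMB9 had lower means in MM lines and the means of PSMB10 were nearly equal, and none was called. PSMB8, which takes the place of PSMB5, lay between 9.66 (OCI-Ly3) and 11.18 (OCI-Ly19) in DLBCL lines with a median of 10.52, and between 8.82 (MOLP-8) and 10.86 (RPMI-8226) in MM lines with a median of 9.71. Of the 12 MM lines, 5 lay below every DLBCL line. The difference was -0.50 ± 0.21 (SE, limma, adjusted p = 0.135). PSMB9, which takes the place of PSMB6, ran from 9.14 (RIVA) to 11.24 (SU-DHL-8) in DLBCL lines and from 8.53 (MOLP-8) to 10.96 (RPMI-8226) in MM lines, a difference of -0.36 ± 0.27 (SE, limma, adjusted p = 0.435). PSMB10, which takes the place of PSMB7, had a difference of 0.03 ± 0.22 (SE, limma, adjusted p = 0.949). Its lowest line was KMS-12-BM at 8.65, with its sister line KMS-12-PE next at 9.32 among MM lines. PSMB8 and PSMB9 lie close together in the MHC region of chromosome 6, where the medians of their 20 neighbours were -0.53 and -0.60. Of these, 5 and 4 were called lower in MM lines and 0 and 2 higher, beside 5.40% and 5.49% of all tested probe-sets. The neighbours are largely the same genes for both, and PSMB8 and PSMB9 are neighbours of each other. Called lower for both were the MHC class II genes HLA-DOB, HLA-DMB, HLA-DMA and HLA-DOA, between -2.46 and -2.02. The class I transporter genes TAP1 and TAP2 were at 0.54 and -0.26 and not called.

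In the alpha ring, which gates the barrel, 5 of 6 genes were lower in value in MM lines and none was called. The range was from PSMA3 at -0.42 ± 0.16 (SE, limma, adjusted p = 0.0963) to PSMA2 at 0.11 ± 0.12 (SE). PSMA4 was at -0.33 ± 0.12 (SE, limma, adjusted p = 0.0734), and 1 of 12 MM lines lay above the DLBCL median for each of PSMA3 and PSMA4. PSMA3 and PSMA4 were near the threshold, and each crossed it when single DLBCL or MM lines were left out, as given with the limits. Among the other structural beta subunits, PSMB1 was at -0.18, PSMB2 at -0.02 and PSMB3 at 0.14.

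In the 19S cap, the ATPases that unfold the substrate ran from PSMC6 at -0.22 ± 0.17 (SE) to PSMC2 at 0.30 ± 0.15 (SE), with a median of 0.10 and none called. Of the 9 non-ATPases, PSMD4 alone was called. PSMD1, a scaffold subunit, was next at 0.37 ± 0.19 (SE, limma, adjusted p = 0.236), and PSMD6 lowest at -0.09 ± 0.15 (SE). PSMD14, the deubiquitinase of the cap, differed by -0.01 ± 0.13 (SE). The assembly chaperones PSMD5, PSMD9 and PSMD10 were at 0.09, 0.13 and 0.26, where the value of PSMD9 holds an outlying line described below. Among the activators, PSME1 was at -0.22 ± 0.17 (SE), PSME3, the nuclear 11S subunit, at 0.26 ± 0.19 (SE) and PSME4 at -0.35 ± 0.16 (SE, limma, adjusted p = 0.164).

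A single line stood apart for PSMD9. HBL-1 was at 5.12 on its probe-set, and the next lowest of the 26 lines was KMS-11 at 9.26. On the other probe-set of PSMD9, HBL-1 was again the lowest line at 4.37, with MM1S next at 4.60 and a median of 6.01. This widened the SD of PSMD9 in DLBCL lines to 1.46, against 0.38 in MM lines. It also lowered the DLBCL mean, so the direction of the PSMD9 difference of 0.13 was not settled. The medians went the other way, at 10.15 in DLBCL and 9.86 in MM lines. The other probe-set gave -0.40 ± 0.26 (SE) and was not called.

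**Figure D3:**
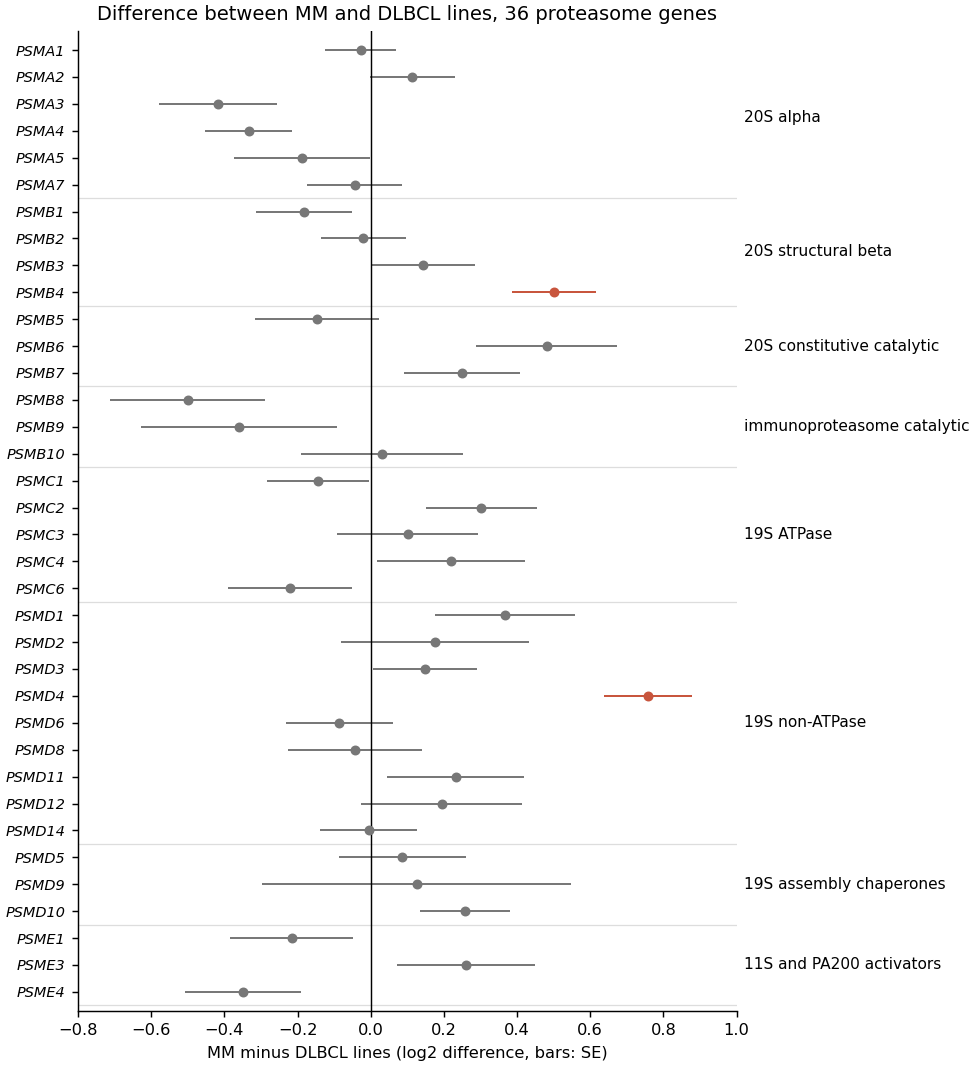
Difference between MM and DLBCL lines (log2, horizontal axis, with bars for the SE) for the 36 measured proteasome genes, grouped by their place in the complex. PSMB4 and PSMD4, in red, are the called genes, and the other differences lie between -0.50 and 0.48.

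Genes that assemble, supply or feed the proteasome were counted from lists. Beside these counts stand the 5.49% of all tested probe-sets called higher in MM lines and the 5.40% called lower. POMP, the chaperone that matures the 20S core, was lower in MM lines by 0.51 ± 0.16 (SE, limma, adjusted p = 0.0384), and no MM line was above the DLBCL median. It was the only one called of 6 assembly factors. Of 8 measured partners and further subunits, 2 were called higher. These were ADRM1, a ubiquitin receptor of the cap, at 0.54 ± 0.17 (SE, limma, adjusted p = 0.0439) and ECPAS, which joins the cap to the core, at 0.56 ± 0.18 (SE, limma, adjusted p = 0.0424). Of 6 ubiquitin and shuttle genes, SQSTM1, the autophagy receptor p62, was called at 1.16 ± 0.37 (SE, limma, adjusted p = 0.0457). Each of these 4 calls was lost in 18 to 21 of 34 alternatives, with the same direction kept.

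None of the 4 measured transcription and processing genes was called. NFE2L1, the factor that raises proteasome genes when the proteasome is inhibited, was at 0.61 ± 0.26 (SE, limma, adjusted p = 0.145) and NFE2L2 at 0.39 ± 0.23 (SE, limma, adjusted p = 0.297). Of 9 class I and interferon genes, ERAP1, which trims peptides in the endoplasmic reticulum, was called at 1.16 ± 0.34 (SE, limma, adjusted p = 0.0248), but another probe-set gave -1.92 ± 0.46 (SE, limma, adjusted p = 0.00687), so its direction was not settled. Of these 9 genes, 6 had a difference above 0, with a median of 0.32. At an unadjusted p under 0.05 in limma 5 were higher, ERAP1 among them, and 1 lower, beside 11.3% and 13.6% of all tested probe-sets. TAP1 was at 0.54 ± 0.23 (SE, limma, adjusted p = 0.136) and HLA-C at 0.95 ± 0.34 (SE, limma, adjusted p = 0.0774). IRF1 and NLRC5, which drive immunoproteasome and class I genes, were at -0.35 ± 0.33 (SE, limma, adjusted p = 0.547) and -0.996 ± 0.472 (SE, limma, adjusted p = 0.188).

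The proteasome genes were next described by how they varied together over the 26 lines, after each disease was centred on its own mean. Over all 630 pairs the median Pearson correlation was 0.24, from -0.64 for PSMA2 with PSMB10 to 0.92 for PSMB3 with PSMD11. Of the 10 pairs with the highest correlation, 9 had both genes on one chromosome, while 42 of the 630 pairs did so. This depended on the cut. Above a correlation of 0.7 were 11 of the 42 pairs on one chromosome and 13 of the 588 on different ones. The median was 0.43 over those 42 pairs and 0.22 over the other 588. Of the 42, 15 were on chromosome 17, with a median of 0.60. The medians were 0.37 on chromosome 14 (10 pairs), 0.32 on 1 (6 pairs), 0.34 on 2 (3 pairs) and 0.06 on 6 (3 pairs). PSMB3, PSMD3, PSMD11 and PSME3 on chromosome 17 made 6 of the 10 highest pairs, among them PSMD3 with PSME3 at 0.91. Against the mean of their own 20 neighbours these genes had 0.05, 0.52, 0.20 and 0.49, in that order. The part of position was not tested. PSMC4 with PSMD8 on chromosome 19 had 0.86, PSMB4 with PSMD4 0.82 and PSMB8 with PSMB9 0.78. Among the 10 highest, the only pair on different chromosomes was PSMD1 on chromosome 2 with PSME3 on chromosome 17, at 0.87.

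**Figure D4:**
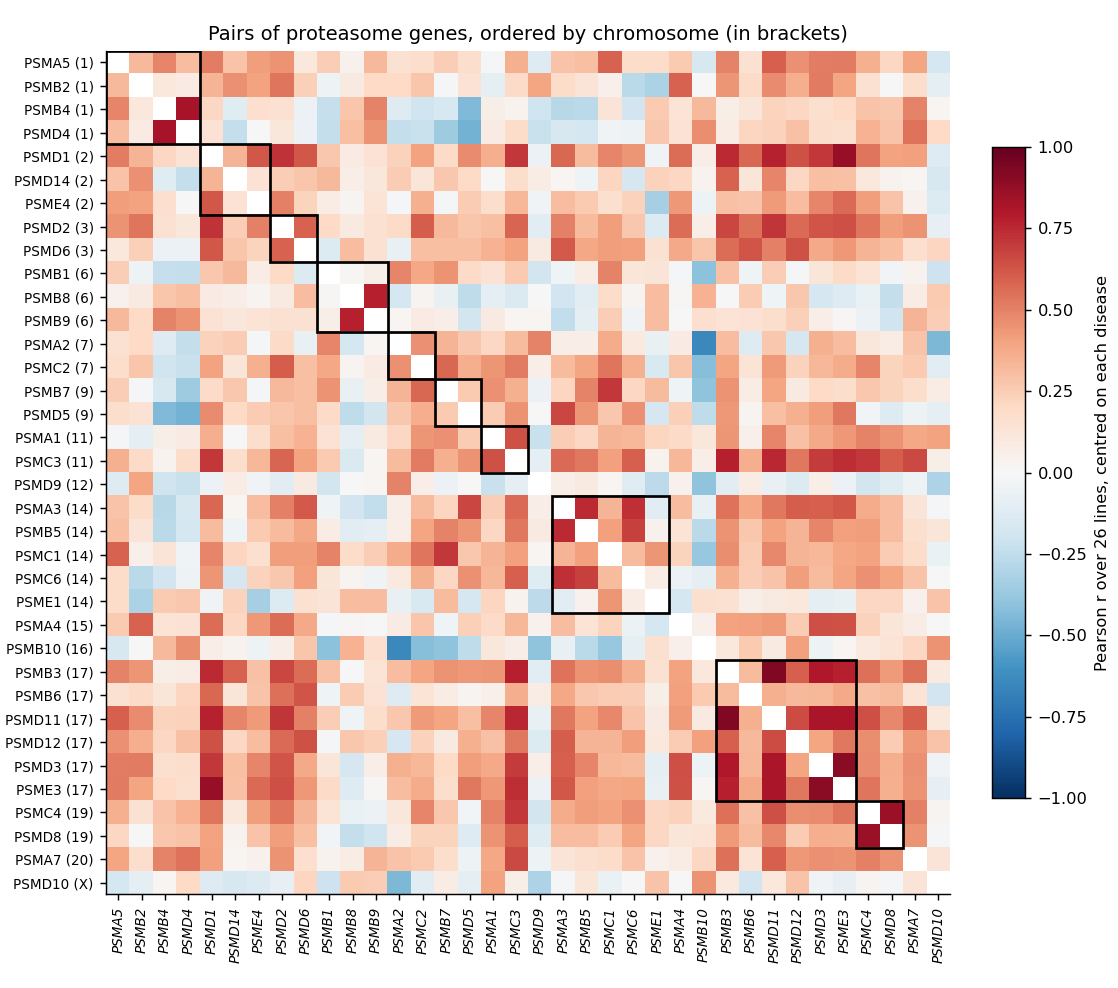
Pearson correlation (colour) of each pair of the 36 measured proteasome genes over 26 lines, centred on each disease and ordered by chromosome, with boxes around genes of one chromosome. The deepest red lies in the boxes of chromosomes 17 and 19, at PSMB4 with PSMD4 and PSMB8 with PSMB9, and outside the boxes at PSMD1 with PSME3.

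The immune subunits did not vary as one set. PSMB8 and PSMB9 had a correlation of 0.78 in DLBCL lines and again 0.78 in MM lines, while PSMB10 had 0.35 with PSMB8 and 0.17 with PSMB9 over the 26 lines. Over the 9 pairs of a constitutive with an immune site the median was -0.08, from -0.40 for PSMB7 with PSMB10 to 0.26 for PSMB6 with PSMB10. The diseases differed in value for PSMB7 with PSMB10, at 0.35 in DLBCL and -0.68 in MM lines, and that difference was not tested. KMS-12-BM and KMS-12-PE, from the same patient, were the highest MM lines for PSMB7 (13.06 and 12.95). They were also the lowest MM lines for PSMB10 (8.65 and 9.32), so the same patient enters the -0.68 and the -0.40 as separate lines. As the mean of PSMB8, PSMB9 and PSMB10 relative to the mean of each gene over all lines, MM lines ran from -1.15 (MOLP-8) to 0.68 (RPMI-8226) and DLBCL lines from -0.54 (RIVA) to 0.59 (OCI-Ly19). The same mean over the 3 constitutive catalytic subunits ran from -0.48 (OPM-2) to 0.79 (KMM-1) in MM lines and from -0.74 (DB) to 0.34 (RIVA) in DLBCL lines, about as wide as the immune mean in DLBCL lines. A mean of more genes was taken over the 13 measured 20S subunits other than the immune ones, with those 3 constitutive subunits among them. It ran from -0.27 (MOLP-8) to 0.28 (KMM-1) in MM lines and from -0.39 (SU-DHL-4) to 0.21 (U2932) in DLBCL lines. MOLP-8 was the lowest MM line on the immune mean and on that of these 13 subunits, and SU-DHL-4 and DB were the lowest DLBCL lines over all 36 genes.

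Of 19772 other named genes, those most like the mean of the 3 immune subunits over the 26 centred lines were TMEM186 (r = 0.71), ANKRD60 (r = 0.68) and TAP1, a peptide transporter of class I presentation (r = 0.68). NLRC5 ranked 72 with r = 0.56 and IRF1 ranked 136 with r = 0.52. Most like the mean of the 13 20S subunits other than the immune ones were PSMD11 (r = 0.87), NUP188 (r = 0.87) and RANGAP1 (r = 0.85) of 19762. NFE2L1 had r = -0.43 with that mean and POMP r = 0.44.

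The second question was whether the level of a proteasome gene before treatment went with the resistance of a line within its disease. AUC0 of C ran from 165 to 346 in 12 DLBCL lines and from 242 to 395 in 12 MM lines. For H it ran from 167 to 327 in 14 DLBCL lines and from 227 to 356 in 12 MM lines, and for O from 54 to 131 and from 90 to 187 in 12 lines each. Slopes are given as the log2 change per 100 units of AUC0, so a slope below 0 is a lower level in more resistant lines. No proteasome gene passed the adjusted threshold in any of the 6 fits by limma, nor did any of the 33297 tested probe-sets (0%). The fits of one disease share their lines between drugs, so they are not independent.

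Without adjustment, the counts at p under 0.05 in limma were small. For C they were 3 of 36 genes in DLBCL lines (8.33%, beside 4.71% of all tested probe-sets) and 4 in MM lines (11.1%, beside 3.51%). For H they were 2 in DLBCL lines (5.56%, beside 5.47%) and 1 in MM lines (2.78%, beside 3.90%). For O they were 4 in DLBCL lines (11.1%, beside 4.29%) and 3 in MM lines (8.33%, beside 4.83%). With 1 line left out at a time, the count ran from 1 to 4 for C and from 1 to 4 for H in DLBCL lines, and from 1 to 5 for C in MM lines. For H in MM lines it was 0 without U-266 and 10 without MM1S, for O in DLBCL lines 0 without DB and 6 without MC-116 or RIVA, and for O in MM lines 3 or 4. The slope was above 0 for 13 and 26 of 36 genes for C in DLBCL and MM lines, for 10 and 29 for H, and for 10 and 10 for O. Over all tested probe-sets the shares above 0 were 50.2% and 51.7% for C, 50.4% and 58.4% for H, and 53.4% and 42.9% for O. Of the 8 proliferation genes, 1 and 4 were above 0 for C, 0 and 8 for H, and 1 and 0 for O. The direction of the proteasome slopes was thus not particular to them, and the part of proliferation was not tested. The genes vary together, as described, so these counts are not of independent genes.

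In DLBCL lines the smallest p belonged to PSMB10, PSMD14 and PSMB8 for C and to PSME1, PSMB8 and PSMB9 for H. For C, PSMB10 was between 10.15 and 10.36 in the 4 lines classed as sensitive. It was between 9.21 (DB) and 10.11 (FARAGE) in the 4 resistant lines, without overlap. The 4 intermediate lines ran from 9.96 to 10.93, across both classes. The genes named here and below were picked by their p. The share of all probe-sets that part the classes without overlap was not counted. The slope of PSMB10 was -0.50 ± 0.16 (SE, limma, p = 0.0104, adjusted p = 0.988). PSMB8 had a slope of -0.44 ± 0.20 (SE, limma, p = 0.0484, adjusted p = 0.988) and PSMD14 one of -0.32 ± 0.11 (SE, limma, p = 0.0104, adjusted p = 0.988).

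For H in DLBCL lines, PSME1 was between 11.72 (FARAGE) and 12.26 (OCI-Ly19) in the 5 sensitive lines. It was between 10.85 (OCI-Ly7) and 11.50 (RIVA) in the 5 resistant lines, again without overlap. The 4 intermediate lines ran from 11.42 (MC-116) to 12.36 (NU-DUL-1), and their mean of 11.95 equalled that of the sensitive lines. The slope of PSME1 was -0.61 ± 0.16 (SE, limma, p = 0.00237, adjusted p = 0.881). PSMB8 was between 10.57 and 11.18 in the sensitive lines and between 9.75 and 10.81 in the resistant lines, with OCI-Ly7 the resistant line inside the sensitive range. Its slope was -0.49 ± 0.21 (SE, limma, p = 0.0370, adjusted p = 0.881), and that of PSMB9 was -0.57 ± 0.28 (SE, limma, p = 0.0651, adjusted p = 0.881). The slope of PSMB9 was -0.35 without RIVA and -0.86 without OCI-Ly7.

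For C in MM lines, the slopes of PSMB8, PSMB9 and PSME1 were above 0, while in DLBCL lines they were -0.44, -0.21 and -0.35. The slope of PSMB10 was below 0 in both, at -0.31 ± 0.45 (SE, limma, p = 0.507, adjusted p = 0.99996) in MM lines. PSME1 was between 10.94 (OPM-2) and 11.31 (MM1S) in the 4 sensitive lines and between 11.86 (AMO-1) and 12.15 (U-266) in the 4 resistant lines. The 4 intermediate lines ran from 10.99 (LP-1) to 12.06 (NCI-H929). The slope of PSME1 was 0.64 ± 0.23 (SE, limma, p = 0.0171, adjusted p = 0.99996). PSMB8 ran from 8.82 (MOLP-8) to 9.70 (MM1S) in sensitive lines and from 9.37 (KMS-12-BM) to 10.86 (RPMI-8226) in resistant lines, a slope of 0.87 ± 0.34 (SE, limma, p = 0.0248, adjusted p = 0.99996). PSMB9 had a slope of 1.03 ± 0.44 (SE, limma, p = 0.0376, adjusted p = 0.99996), which fell to 0.71 without MOLP-8 and rose to 1.60 without MM1S.

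The difference of the slopes between the diseases was tested itself, as MM minus DLBCL. For C it was 1.30 ± 0.39 (SE, limma, p = 0.00292, adjusted p = 0.999) for PSMB8, 0.98 ± 0.31 (SE, limma, p = 0.00424, adjusted p = 0.999) for PSME1, 0.73 ± 0.26 (SE, limma, p = 0.00939, adjusted p = 0.999) for PSMC1, a 19S ATPase, and 1.24 ± 0.52 (SE, limma, p = 0.0261, adjusted p = 0.999) for PSMB9. For PSMB10 it was 0.19 ± 0.46 (SE, limma, p = 0.686, adjusted p = 0.999). None passed the adjusted threshold, and no tested probe-set did for any drug (0%). At an unadjusted p under 0.05 in limma, 4 of 36 genes differed for C (beside 4.47% of all tested probe-sets), 2 for H (beside 5.08%) and none for O (beside 4.12%). For H the slopes of PSMB8, PSMB9 and PSME1 in MM lines were -0.17, -0.04 and -0.18, all below 0.

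For H in MM lines the lowest p belonged to PSMA7 at 0.57 ± 0.25 (SE, limma, p = 0.0419, adjusted p = 0.999), PSME3 at 0.73 ± 0.35 (SE, limma, p = 0.0593, adjusted p = 0.999) and PSMA2 at 0.45 ± 0.22 (SE, limma, p = 0.0599, adjusted p = 0.999). PSME3 was between 11.09 and 11.60 in the 4 resistant lines and between 10.12 and 10.92 in the 4 sensitive lines, with the intermediate lines from 9.85 to 10.81. KMS-12-BM and KMS-12-PE, from the same patient, were both among the resistant lines. The slope of PSMA7 was 0.96 without MM1S, the most sensitive line, and 0.34 without MOLP-8. That of PSME3 was 1.24 without MM1S and 0.57 without KMS-11.

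For O in DLBCL lines, PSME3 had a slope of -0.90 ± 0.31 (SE, limma, p = 0.0138, adjusted p = 0.993), PSMD6 one of -0.92 ± 0.41 (SE, limma, p = 0.0458, adjusted p = 0.993) and PSMA4 one of -0.70 ± 0.31 (SE, limma, p = 0.0419, adjusted p = 0.993). DB, the most resistant line, was the lowest line of the resistant class for all 3, and without it the slopes were -0.54, -0.45 and -0.37.

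For O in MM lines, PSMD14 had the smallest p of any proteasome gene in these fits, with a slope of -1.19 ± 0.27 (SE, limma, p = 0.000897, adjusted p = 0.922). It lay between 11.45 and 11.77 in the 4 sensitive lines and between 10.20 (LP-1) and 11.33 (MOLP-8) in the 4 resistant lines, without overlap. The 4 intermediate lines ran from 11.39 (KMS-11) to 11.86 (KMS-12-PE). LP-1, the most resistant line, was far below the rest, and without it the slope was -0.54 (limma, p = 0.0857). PSMB3 at -0.93 ± 0.33 (SE, limma, p = 0.0154, adjusted p = 0.948) and PSMD11 at -1.26 ± 0.45 (SE, limma, p = 0.0158, adjusted p = 0.948) were also lowest in LP-1 among MM lines, and were at -0.48 and -0.92 without it. PSMB5, the target of bortezomib, had slopes between -0.15 and 0.45 in the 6 fits, and its lowest p was 0.230 (limma). Neither PSMB4 nor PSMD4 was among the 3 genes of smallest p in any fit.

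**Figure D5:**
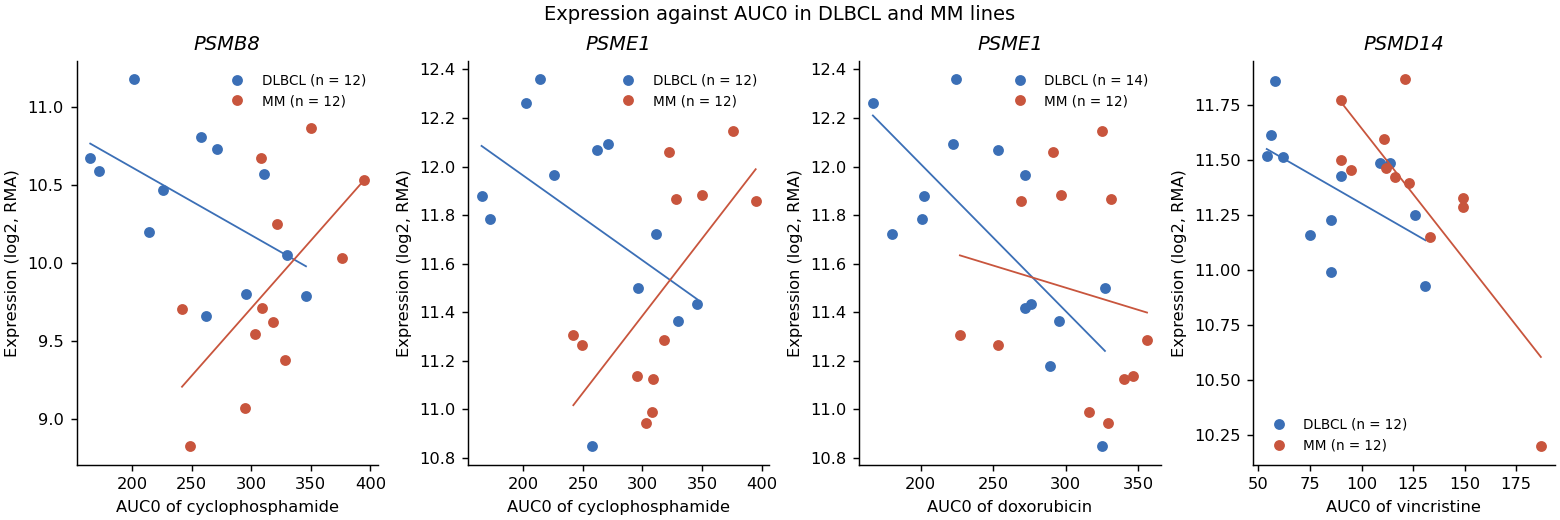
Expression (log2 after RMA, vertical axis) against AUC0 (horizontal axis, higher in more resistant lines) for PSMB8 and PSME1 with cyclophosphamide, PSME1 with doxorubicin and PSMD14 with vincristine, in DLBCL (blue) and MM (red) lines, with a least-squares line for each disease. For cyclophosphamide the lines of the diseases run in opposite directions, and for PSMD14 the red line is drawn down by LP-1 at an AUC0 of 187.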

How the data were processed

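Each of the 26 B-cell lines gave 1 HG-U133 Plus 2.0 array. The authors deposited log2 expression values after RMA, which corrects background, gives every array the same distribution and turns the probes of a probe-set into a single value. The submitters' processing notes name R 3.0.1 and affy. RMA hides changes shared by all genes. Values ran from 2.41 to 15.09, with array medians of 5.65 to 5.72, and precision is bounded by how many arrays there are. Of 54675 probe-sets, 62 controls were left out, and 1 probe-set per gene (highest mean) plus those with no or several symbols left 33297.

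MM and DLBCL lines, and slopes on AUC0 within each disease, were compared by limma 3.58.1 in R 4.3.3, with Benjamini-Hochberg adjustment over all 33297 probe-sets and a threshold of 0.05. The scripts were tested on simulated data. Genes were named by rule: catalytic subunits, activators, called genes, the ends of each group, the 3 smallest p per drug and disease, the 3 genes most alike each mean, and called related genes with POMP, NFE2L1, NFE2L2, IRF1 and NLRC5. The genes and lists were chosen with earlier results of these data known. Doxorubicin classes came from a second class label that repeats the name of cyclophosphamide and was read by its position. Alternatives were other probe-set choices, dim probe-sets left out, median centring, a limma trend, lines left out, 10% serum and the resistance classes. Protein sequences were not used here.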

Additional observations from a re-analysis of the deposited data

How the results depend on the processing

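PSMD4 kept its call in all 34 alternatives (0.57 to 0.90 on the log2 scale) and PSMB4 in 33. With the probe-set of the largest SD over DLBCL lines, 1 proteasome gene, PSMD4, was higher in MM lines in place of 2. The count of genes lower in MM lines was 1 (PSMA3) with the mean of the probe-sets of a gene. It was 2 (PSMA3 and PSMD5) with every probe-set on its own, an alternative chosen after seeing the data. There the PSMA3 call came from a dimmer probe-set (mean 6.08) at -0.39, while its brightest one, at -0.42, was not called. That of PSMD5 came from a dim probe-set (mean 3.75) at -0.16, while its brighter one gave 0.09 and was not called. With 1 line left out the count of genes lower in MM lines ran from 0 to 1, with PSMA4 called without DB or SU-DHL-4. PSMA3 was called without NU-DUL-1 or KMM-1. PSMB10 changed sign to -0.0155 without MC-116 and AMO-1, and with 1 line left out it ran from -0.0649 (without MM1S) to 0.159 (without KMS-12-BM). ERAP1 was at -1.92 with the probe-set of the largest SD and at -0.10 with the mean of its probe-sets. NFE2L1 was called among lines in 10% serum, at 1.21 (limma, adjusted p = 0.0300). When both diseases were fitted together with a disease term, 1 joint slope on C replaced those of each disease, at 0.0304 for PSMB8, 0.23 for PSMB9 and 0.0025 for PSME1. The causes of these changes were not tested. No alternative gave a proteasome gene whose level changed with AUC0 past the adjusted threshold in limma. No paired analysis was possible because the groups are different cell lines and their numbers only name the lines.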
